A study of Mus musculus with 2 samples.

Results

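The genes described here are 49 mouse genes of the interferon response, listed as 5 sensors of foreign nucleic acid, 16 components of interferon signalling, 21 antiviral effectors and 7 interferon-inducible GTPases. A gene was found on the array where the array's own gene name equalled its symbol, ignoring case, and it was read by its brightest probe. Of the 49 genes, 46 had a probe under their name, with 72 probes in all, and 41 could be tested among the 18204 genes tested on the array. Dhx58, Irf9 and Xaf1 had no probe under those names. Ifnar1 was not tested because its spot on array 1 carried an outlier flag. Usp18, Ifi44, Oas2 and Iigp1 were not tested because neither dye read them well above background on array 1.

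The cells were C2C12, a mouse myoblast line that the labels trace to adult leg muscle of strain C3H. Knockdown cells stably expressed a short hairpin RNA (shRNA) against Mybbp1a, which encodes a mainly nucleolar protein, and control cells stably expressed a control shRNA. Both were mixtures of stable clones kept at subconfluent density in growth medium with 20% fetal bovine serum, and the vector and its promoter are not given in the sources used here. Each of 2 two-colour Agilent arrays compared the cells, with Cy5 marking the knockdown and Cy3 the control, labelled from 0.5 µg of total RNA. The orientation was the same on both arrays, so dye bias and the effect of the knockdown cannot be told apart. The arrays are labelled biological replicates, but no label says whether they came from separate clone pools or cultures, so the spread behind the p-values is that between these samples and may be technical. In a mixture of clones, fewer expressing cells and less RNA per cell cannot be told apart.

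Interferons are secreted proteins, and cells release type I interferons when they sense viral nucleic acid. Type I interferons bind the receptor Ifnar1-Ifnar2 and interferon gamma binds Ifngr1-Ifngr2, and both receptors signal through Jak kinases and Stat transcription factors. A complex that holds Stat2 and Irf9 binds the interferon-stimulated response element (ISRE), while interferon gamma acts through the gamma-activated site (GAS), and the genes so switched on encode sensors, more signalling proteins and proteins that block viral entry, translation, replication and release.

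Promoter sequence is shown for genes with high and low ratios on the lower of their arrays, to show what the ISRE-type letters look like in these windows. The windows are the 250 bases before the annotated start in RefSeq, build GRCm38.p6, written 5′ to 3′ on the gene's strand, with ISRE-type matches in capitals. Bst2 (chr8:71537473-71537722, minus strand), Igtp (chr11:58199306-58199555, plus strand) and Oas1a (chr5:120907526-120907775, minus strand) were among the genes with the highest ratios on their lower array. Oasl1 (chr5:114922990-114923239, plus strand) and Socs1 (chr16:10785537-10785786, minus strand) had the lowest, although Socs1 was above 0 on its other array. Bst2 held overlapping matches that began 130 and 124 bases before the start, Igtp 1 match at 34 bases, Oas1a overlapping matches at 20 and 14 bases, and Socs1 overlapping matches at 83 and 77 bases. Oasl1 held no match. The window of Ifitm3 is not shown because its matches lay after the start.
Bst2: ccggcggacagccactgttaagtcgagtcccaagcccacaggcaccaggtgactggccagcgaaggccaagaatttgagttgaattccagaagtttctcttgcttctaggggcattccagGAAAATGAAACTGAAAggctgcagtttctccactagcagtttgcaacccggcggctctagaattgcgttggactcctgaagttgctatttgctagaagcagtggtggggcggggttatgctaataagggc
Igtp: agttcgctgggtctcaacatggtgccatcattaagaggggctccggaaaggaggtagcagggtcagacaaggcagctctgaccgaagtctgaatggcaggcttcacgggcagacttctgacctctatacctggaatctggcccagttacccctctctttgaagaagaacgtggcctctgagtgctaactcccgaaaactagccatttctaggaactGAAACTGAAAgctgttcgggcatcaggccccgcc
Oas1a: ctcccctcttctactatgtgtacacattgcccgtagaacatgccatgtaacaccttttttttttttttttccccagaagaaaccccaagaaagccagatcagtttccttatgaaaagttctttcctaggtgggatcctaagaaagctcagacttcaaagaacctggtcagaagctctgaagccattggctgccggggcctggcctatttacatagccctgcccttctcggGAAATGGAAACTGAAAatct
Socs1: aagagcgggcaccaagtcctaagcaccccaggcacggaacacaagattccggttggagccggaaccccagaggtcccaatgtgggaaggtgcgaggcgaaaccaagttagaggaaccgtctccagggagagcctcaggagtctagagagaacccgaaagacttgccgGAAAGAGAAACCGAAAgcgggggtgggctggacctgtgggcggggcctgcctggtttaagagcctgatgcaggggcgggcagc
Oasl1: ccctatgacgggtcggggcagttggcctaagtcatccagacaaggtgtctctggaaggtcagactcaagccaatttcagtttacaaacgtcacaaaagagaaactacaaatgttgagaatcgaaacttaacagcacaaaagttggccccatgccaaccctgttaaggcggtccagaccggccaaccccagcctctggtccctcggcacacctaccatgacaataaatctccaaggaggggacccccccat

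The ISRE-type motif searched was GAAA, any 2 bases, then GAAA, on both strands (on the other strand TTTC, any 2 bases, then TTTC), with overlapping matches counted, in a window from 250 bases before to 50 bases after each start. It occurred in 3.44% of all 32851 promoters of the RefSeq table. A promoter was listed for 41 of the 49 interferon genes, and 19 of these (46.3%) held a match, against 3.99% of all 27025 genes with a promoter in the table. By role these were 2 of 3 sensors, 4 of 15 signalling genes, 9 of 19 effectors and 4 of 4 GTPases. The GAS-type motif TTCNNNGAA, which reads the same on both strands, occurred in 8.3% of all promoters. It was found in 15 of the 41 interferon genes (36.6%), against 9.55% of all genes with a promoter in the table. A match is a run of letters and not a measured binding site.

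Of the array as a whole, 45018 spots were read on each slide, and spots well above background made up 65.6% and 79.7% of the knockdown channel, against 64.9% and 72.9% of the control channel, on arrays 1 and 2. Mybbp1a had signals of 2105 and 1765 in knockdown cells, against 6556 and 6642 in control cells, a mean log2 ratio of -1.78 ± 0.19 (SD, n = 2) or 3.42-fold lower (limma adjusted p = 0.174). All 8 listed myoblast markers were measured, with a summed signal of 150354 and 132329 in knockdown cells, against 156255 and 130146 in control cells. Most of each sum was Chrna1, with 83937 and 77766 in knockdown cells, against 87669 and 91124 in control cells. The median log2 ratio of the 8 was 0.15, with the highest mean for Myf5 (0.21 and 0.59) and the lowest for Chrna1 (-0.06 and -0.23). Of 13 leukocyte markers 9 were tested, with a summed signal of 7188 and 6788 in knockdown cells, against 6342 and 6638 in control cells. The leukocyte markers Ptprc, Emr1, Itgam and Laptm5 were not well above background on array 1. Over the 9 tested the median log2 ratio was 0.04, with 5 above 0 on both arrays, the highest being Cd53 (0.62 and 0.92) and Tyrobp (0.66 and 0.71), and 2 below 0 on both, Cd14 (-0.11 and -0.27) and Cd74 (-0.01 and -0.37). Of 6 endothelial markers Cdh5 and Tek were tested, with a summed signal of 486 and 427 in knockdown cells, against 321 and 313 in control cells. Cdh5 had log2 ratios of 1.03 and 0.68, with a control reading that cleared background on 1 array only, and Tek had 0.13 and 0.22. The endothelial markers Pecam1, Kdr and Tie1 were not well above background on array 1. The part that these transcripts of other cell types have in the interferon values was not tested.

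Most interferon genes that could be tested had somewhat more RNA in the Mybbp1a knockdown cells than in control cells, and none passed the test. Values are log2 ratios of knockdown over control, so 0 is no difference and 1 is a 2-fold higher signal in knockdown cells. The median of the 41 tested genes was 0.36 (0.28 on array 1 and 0.41 on array 2), beside 0.03 for all genes tested. Of the 41, 31 were above 0 on both arrays (75.6%) and 3 below 0 on both (7.32%), while 7 had opposite signs. Irf2, at 0.00 on both arrays, is counted among the 31. So are Ifit3 and Irf7, whose control reading cleared background on 1 array only. Where both dyes had to clear background on both arrays, 38 genes were left, with 29 above 0 on both and 3 below. Of all genes tested, 40.5% were above 0 on both arrays, 29.4% below 0 on both, and 30.0% had opposite signs. The list was chosen with earlier results of these data known, so its shares beside those of all genes are description only. Between the brighter 21 and the dimmer 20 of the interferon genes the median was 0.32 and 0.40.

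In limma's test of each ratio against 0, adjusted over all 18204 genes, 0 interferon genes passed an adjusted p of 0.05 in either direction, as did 0.0% of all genes. Their adjusted p-values lay between 0.176 and 0.995. At an unadjusted p under 0.05, 19 interferon genes were higher (46.3% of those tested), against 13.4% of all genes. Lower at that threshold was 1, Oasl1, against 7.49% of all genes. These shares too are description only, given how the list was chosen. A difference of 2-fold or more on both arrays was reached by 1 interferon gene, Bst2, and by 0.632% of all genes in the higher direction, and by none of the interferon genes and 0.0549% of all genes in the lower direction. With each array centred on its median in place of loess, 21 of the 41 passed as higher and 0 as lower, against 17.2% and 0.335% of all genes. The median of all genes then stood at 0.21, and that of the interferon genes lay 0.34 above it. Relative to the median of all genes, 30 of the 41 were higher on both arrays after loess, and 28 were higher and 5 lower on both after median centring.

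**Figure D1:**
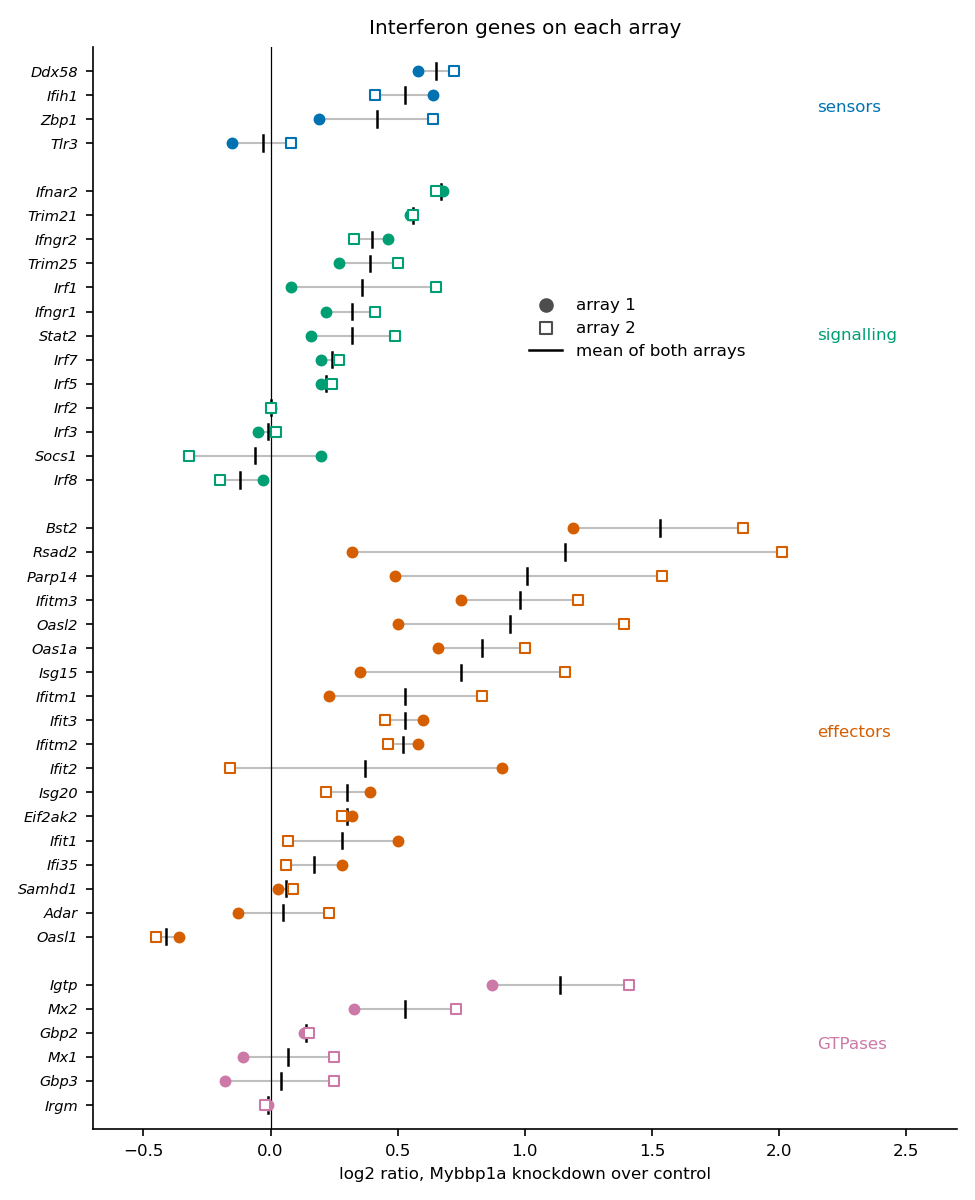
Log2 ratio of knockdown over control (x axis) for each of the 41 tested interferon genes (y axis), grouped by role, with array 1 as filled circles, array 2 as open squares and their mean as a vertical bar. Bst2 lies at 1.19 and 1.86, Oasl1 is below 0 on both arrays at -0.36 and -0.45, and Rsad2 spans 0.32 to 2.01.

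The sensors of viral RNA were higher on both arrays, apart from Tlr3. Ddx58, which encodes the cytoplasmic RNA sensor Rig-I, had signals of 583 and 708 in knockdown cells, against 390 and 431 in control cells. Both knockdown values lay above both control values, and the log2 ratio was 0.58 and 0.72 (mean 0.65 ± 0.10, SD, n = 2, limma adjusted p = 0.176). Here and below such separation is description only, because the share of all genes that separate in this way is not given. Ifih1, the related sensor Mda5 of long double-stranded RNA, had 943 and 968 in knockdown cells, against 604 and 728 in control cells, without overlap and with a mean ratio of 0.53 ± 0.17. Zbp1, a sensor of left-handed nucleic acid that can trigger necroptosis, was dim, at 167 and 199 in knockdown cells, against 146 and 128 in control cells. Its log2 ratio was 0.19 and 0.64. Tlr3, the endosomal receptor of double-stranded RNA, had 220 and 126 in knockdown cells, against 244 and 119 in control cells, so that the arrays differed more than the cells did and the ratios had opposite signs (-0.15 and 0.08).

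Among the receptors, Ifnar2, the signalling chain of the type I interferon receptor, had 4510 and 5232 in knockdown cells, against 2809 and 3338 in control cells. The groups did not overlap, and the ratio was nearly the same on both arrays, 0.68 and 0.65 (mean 0.67 ± 0.02, SD, n = 2, limma adjusted p = 0.176). These values are of its brightest probe, and its other tested probe had 0.40 and 0.14. The partner chain Ifnar1 was read on array 2 only, at a log2 ratio of 0.06. Ifngr1, the ligand-binding chain of the interferon gamma receptor, had 18711 and 19456 in knockdown cells, against 16033 and 14649 in control cells, and ratios of 0.22 and 0.41. Ifngr2, the chain that brings in Jak2, had 6097 and 7791 in knockdown cells, against 4418 and 6195 in control cells. Its groups overlapped across the arrays, although each array gave a positive ratio, 0.46 and 0.33. Signals of different probes are not comparable as levels of RNA, because each probe binds its target with its own strength.

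Of the transcription factors of the pathway, Stat2, which joins Irf9 in the complex that binds the ISRE, had 2944 and 2172 in knockdown cells, against 2637 and 1547 in control cells, and log2 ratios of 0.16 and 0.49. Irf1, an early target of interferon gamma, had ratios of 0.08 and 0.65, so that its mean of 0.36 ± 0.40 (SD, n = 2) had a spread wider than itself. Irf7, the amplifier of type I interferon production, had 0.20 and 0.27, and Irf5 had 0.20 and 0.24. The control reading of Irf7 cleared background on 1 array only. Irf2 is mostly a repressor at ISRE sites, and Irf3 starts interferon transcription after viral sensing and is itself made without interferon. Their mean ratios were 0.00 and -0.01. With median centring that of Irf3 was 0.29, and the median of all genes was 0.21. Irf8, a factor of myeloid cells, had 207 and 118 in knockdown cells, against 211 and 136 in control cells, and was lower on both arrays (-0.03 and -0.20).

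Among the regulators that act on the pathway, Socs1, the interferon-induced inhibitor of Jak kinases, had 6429 and 6202 in knockdown cells, against 5616 and 7752 in control cells. Its knockdown values lay between the control values, and the ratio was 0.20 on array 1 and -0.32 on array 2. Its mean of -0.06 ± 0.37 turned to 0.23 with median centring, where the median of all genes was 0.21. Trim21, an antibody receptor of the cytosol and a ubiquitin ligase, had 270 and 267 in knockdown cells, against 184 and 180 in control cells. Those values barely differed between arrays, and the mean log2 ratio was 0.56 ± 0.01 (SD, n = 2, limma adjusted p = 0.176). Trim25, the ubiquitin ligase that activates Rig-I, had ratios of 0.27 and 0.50 on its brightest probe, but -0.24 and -0.25 on its other probe. Usp18, which removes Isg15 from proteins and dampens the type I receptor, was too dim to test, with ratios of 0.39 and 0.63.

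Among the effectors that act at membranes, Bst2 (tetherin), which holds budding virus particles at the cell surface, had the highest mean of the 41 genes. Its signal was 2680 and 4105 in knockdown cells, against 1174 and 1128 in control cells. The control signal was nearly the same on both slides and both knockdown values lay above it, giving log2 ratios of 1.19 and 1.86 (mean 1.53 ± 0.48, SD, n = 2, 2.88-fold higher, limma adjusted p = 0.176). Ifitm3, a membrane protein that blocks viral fusion in endosomes, had 82155 and 91344 in knockdown cells, against 48835 and 39610 in control cells. It was 1.97-fold higher on average, at 0.75 and 1.21, and no array flagged it as saturated. Its relatives Ifitm2 (0.58 and 0.46) and Ifitm1 (0.23 and 0.83) were also higher on both arrays. All 3 lie in 1 cluster on chromosome 7. The brightest probes of the 3 genes share no run of letters longer than 6 bases.

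**Figure D2:**
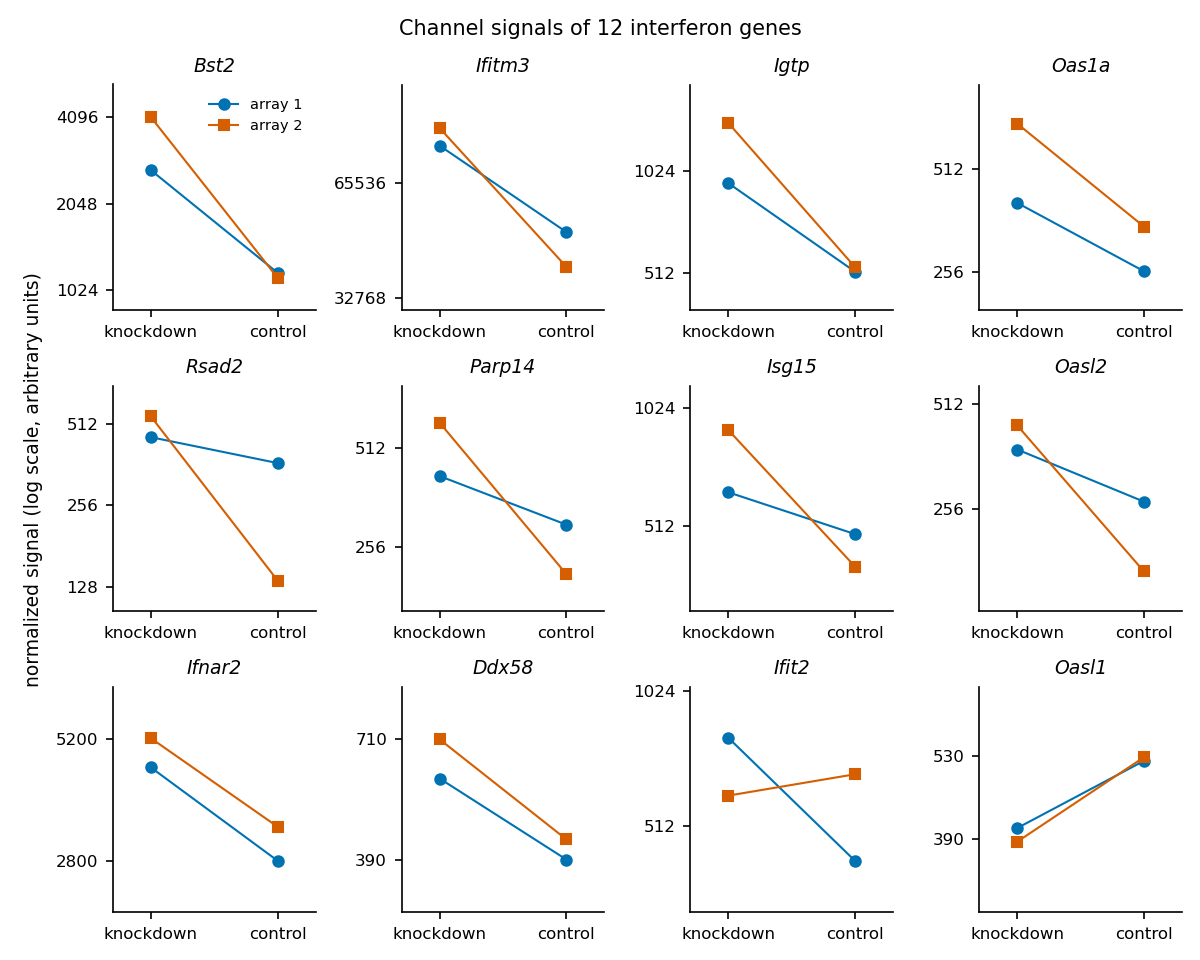
Normalized signal (y axis, log scale, arbitrary units) of 12 interferon genes in knockdown and control cells (x axis), with a line joining the cells on each array. The genes shown were chosen with their values known and include those with the highest mean ratios. The share of falling lines therefore reflects that choice. From knockdown to control the lines fall on both arrays for every gene shown but Ifit2 and Oasl1. For Ifit2 they run in opposite directions (804 and 599 in knockdown cells, against 429 and 668 in control cells). For Oasl1 they rise on both arrays.

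The 2′-5′ oligoadenylate synthetase family was split. Oas1a, which makes the messenger that activates RNase L, had 408 and 694 in knockdown cells, against 258 and 348 in control cells, with log2 ratios of 0.66 and 1.00 (mean 0.83 ± 0.24, SD, n = 2, limma adjusted p = 0.176). Oasl2 had 379 and 444 in knockdown cells, against 269 and 170 in control cells, with ratios of 0.50 and 1.39. Oasl1, which in mouse represses translation of Irf7, ran the other way, with 406 and 386 in knockdown cells, against 521 and 528 in control cells. The groups of Oasl1 did not overlap either, at -0.36 and -0.45 (mean -0.41 ± 0.07, SD, n = 2, limma adjusted p = 0.183), and its mean remained below 0, at -0.22, with median centring. The brightest probes of Oasl1 and Oasl2 share no run longer than 6 bases. The same family's Oas2 was too dim to test, with ratios of 0.19 and 0.42.

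The IFIT family, which binds foreign RNA and blocks its translation, had 3 members tested. Ifit3 had ratios of 0.60 and 0.45 (0.46 and 0.59 with median centring), with a control reading that cleared background on 1 array only. Ifit1 had 299 and 296 in knockdown cells, against 212 and 283 in control cells, and ratios of 0.50 and 0.07. Ifit2 had 804 and 599 in knockdown cells, against 429 and 668 in control cells. Its groups overlapped and its ratios had opposite signs, 0.91 and -0.16.

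The arrays disagreed most for Rsad2, which encodes viperin, an enzyme that makes a chain-terminating nucleotide. Rsad2 had 456 and 544 in knockdown cells, against 366 and 135 in control cells. Most of the difference between the arrays therefore lay in the control channel, and the log2 ratio was 0.32 and 2.01 (mean 1.16 ± 1.19, SD, n = 2, limma adjusted p = 0.278). Parp14, an ADP-ribosyltransferase, had 421 and 613 in knockdown cells, against 299 and 211 in control cells, and ratios of 0.49 and 1.54. Isg15, a ubiquitin-like protein attached to other proteins, had 624 and 899 in knockdown cells, against 488 and 403 in control cells. Its groups did not overlap, its ratios were 0.35 and 1.16, and the array's annotation placed its probe on chromosome 17, whereas RefSeq places the gene on chromosome 4. Over all 41 genes the ratio was higher on array 2 than on array 1 in 27 (65.9%), beside 50.2% of all genes tested.

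Of the remaining effectors, Isg20, an RNA exonuclease, had 0.39 and 0.22, and Eif2ak2, the kinase PKR that stops translation on sensing double-stranded RNA, had 0.32 and 0.28. Ifi35 had 0.28 and 0.06. Samhd1, which depletes nucleotides, had 0.03 and 0.09 on its brightest probe and 0.50 and 0.79 on its other probe. Adar, which edits adenosine in double-stranded RNA, had -0.13 and 0.23. Of the untested effectors, Ifi44 had 0.40 and 0.09.

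**Figure D3:**
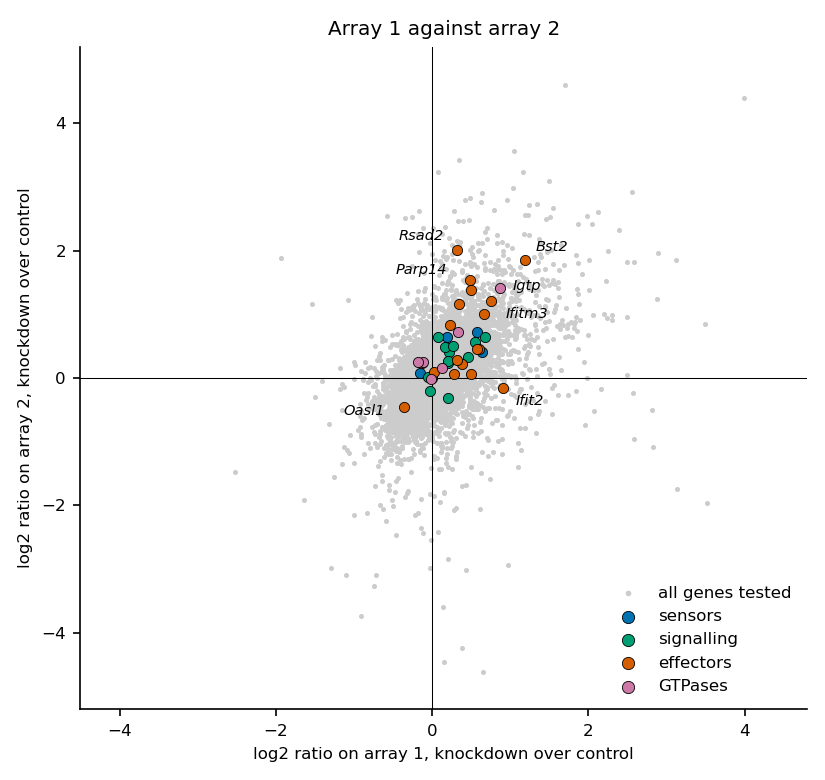
Log2 ratio of knockdown over control on array 1 (x axis) and array 2 (y axis) for all 18204 genes tested (grey) and the 41 interferon genes (coloured by role). Of the interferon genes 31 lie above 0 on both arrays, and Ifit2 lies above 0 on array 1 alone.

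The interferon-inducible GTPases held 1 gene with a large ratio. Igtp, which acts on the vacuoles of intracellular parasites, had 940 and 1414 in knockdown cells, against 515 and 531 in control cells. Like Bst2, it had a control signal that was nearly the same on both slides and knockdown values that lay above it, with ratios of 0.87 and 1.41 (mean 1.14 ± 0.38, SD, n = 2, 2.20-fold higher, limma adjusted p = 0.176). Mx2, a dynamin-like antiviral GTPase, was dim, with 188 and 188 in knockdown cells, against 149 and 113 in control cells, and ratios of 0.33 and 0.73. Mx1 had -0.11 and 0.25, with each channel clearing background on 1 array only, and its mean turned to -0.22 with median centring. The guanylate-binding proteins Gbp2 (0.13 and 0.15) and Gbp3 (-0.18 and 0.25) and the immunity-related GTPase Irgm (-0.01 and -0.02) were near 0 after loess. With median centring the mean of Irgm was 0.26, and the median of all genes was 0.21. Gbp2 read 264 and 619 in knockdown cells, against 241 and 558 in control cells, a wider gap between slides than between cells. Iigp1, too dim to test, had -0.05 and 0.51. The median over the 6 tested GTPases was 0.11 (0.26 with median centring, 0.25 without replicate 1). It was 0.52 over 18 effectors and 0.47 over 4 sensors (0.71 with the deposited table, where another probe of Ddx58 was read). Over 13 signalling genes the median was 0.32 (0.59 with median centring, 0.20 without replicate 2). Differences between the roles were not tested.

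More than 1 probe could be tested for 15 of the 41 genes. For 12 of them the mean ratios of all probes had the same sign, and for Irf3, Trim25 and Irgm they did not. The 3 probes of Rsad2 had mean log2 ratios between 0.57 and 1.16, and the 3 probes of Ddx58 between 0.40 and 0.71. The 2 probes of Parp14 had 0.63 and 1.01, those of Ifitm2 0.52 and 0.53, and those of Ifnar2 0.27 and 0.67. The array's annotation placed the probes of Ifitm2 apart on chromosome 7, with starts at 140806333 on the minus strand and 46700586 on the plus strand of build mm8. Which transcripts each probe reads was not checked, since no transcript sequences were used here.

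**Figure D4:**
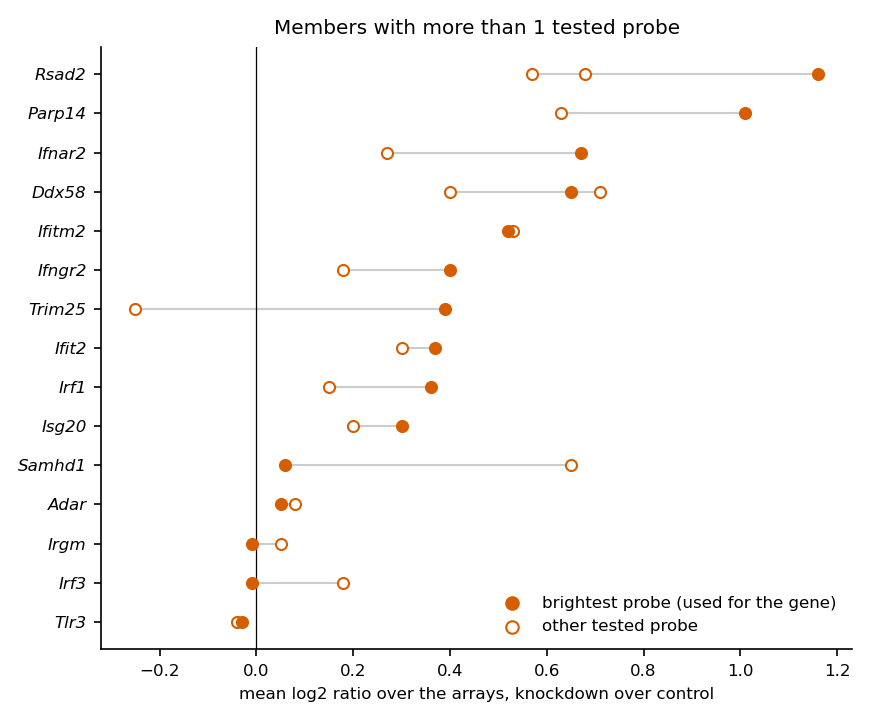
Mean log2 ratio of knockdown over control (x axis) of every tested probe of the 15 interferon genes with more than 1 (y axis), with the brightest probe filled and the others open. Trim25 spans -0.25 to 0.39 and Samhd1 0.06 to 0.65, while the probes of Ifitm2 lie together at 0.52 and 0.53.

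Genes with and without an ISRE-type match in the promoter window overlapped in their ratios. The 19 tested genes with a match had a median mean log2 ratio of 0.53 and ran from -0.06 (Socs1) to 1.53 (Bst2), with 16 above 0 on both arrays. The 18 tested genes with a listed promoter but no match had a median of 0.27 and ran from -0.41 (Oasl1) to 0.94 (Oasl2), with 12 above 0 on both arrays. The 16 and 12 are shares of 84.2% and 66.7%, beside 40.5% of all genes tested. Both groups are parts of 1 chosen list, so the difference of their medians was not tested. For the GAS-type motif the medians were 0.33 over 14 genes with a match and 0.32 over 23 without. Isg15 held 3 overlapping ISRE-type matches, at 78, 72 and 66 bases before its start, and Irgm held overlapping matches at 30 and 24 bases and had a ratio near 0.

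**Figure D5:**
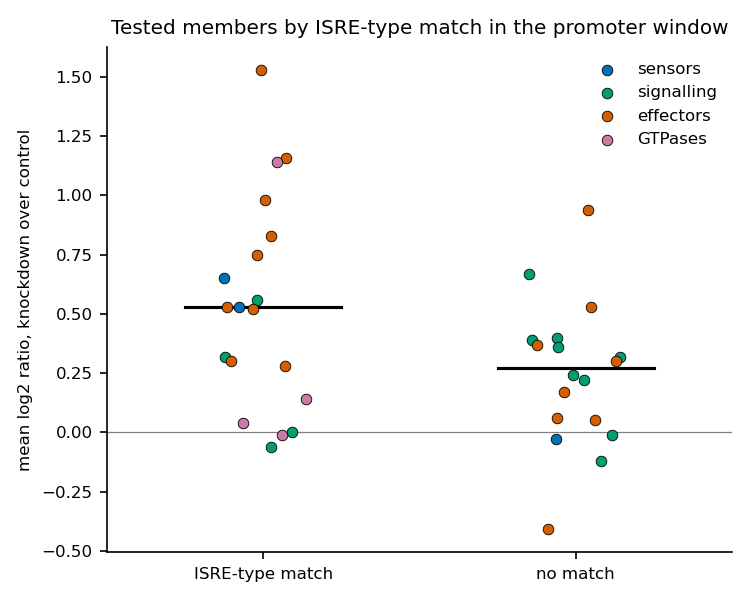
Mean log2 ratio of knockdown over control (y axis) of tested interferon genes with a listed promoter, by whether the window from 250 bases before to 50 after the start holds an ISRE-type match (x axis). Points are genes coloured by role, spread sideways at random, and bars are medians, 0.53 for 19 genes with a match and 0.27 for 18 without.

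Other genes of the pathway were read from separate lists. Of 16 adaptors, kinases and inhibitors, 13 were tested, none passed limma's adjusted p of 0.05, 9 were above 0 on both arrays and 1 below, and the median was 0.06. The 9 and 1 are 69.2% and 7.69% of those tested, beside 40.5% and 29.4% of all genes, whose median was 0.03. The highest mean of the 13 was that of Socs3, an inhibitor of Jak signalling, at 0.33 and 0.66. Their lowest was that of Nmi, a Stat-interacting protein, with 2525 and 2798 in knockdown cells, against 4776 and 3729 in control cells, and ratios of -0.92 and -0.41 (limma adjusted p = 0.191). Of the receptor kinases, Jak1 (0.07 and 0.26) and Jak2 (0.04 and 0.35) were slightly above 0 on both arrays, and Tyk2 (-0.05 and 0.17) had opposite signs.

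Of 30 further interferon-stimulated genes, 21 were tested, none passed the adjusted p, 13 were above 0 on both arrays and 1 below, and the median was 0.31. The 13 and 1 are 61.9% and 4.76% of those tested, beside 40.5% and 29.4% of all genes. Those 2-fold or more higher on both arrays were Ifi27, a small mitochondrial or nuclear envelope protein, at 1.22 and 2.56, and Phf11, at 1.06 and 1.45. Of all genes tested, 0.632% were 2-fold or more higher on both arrays. Ifi27 had 2449 and 2728 in knockdown cells, against 1049 and 462 in control cells. Lgals3bp, a secreted glycoprotein, had 0.58 and 2.12, and here too the control channel moved most between arrays, with 4282 and 4620 in knockdown cells, against 2857 and 1066 in control cells. The lowest mean was that of Tgtp, at 0.08 and -0.34.

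Of 12 interferon ligands, 3 were tested, Ifna2, Ifna5 and Ifna9, and their mean ratios lay between -0.06 and 0.01. The alpha genes are near-identical copies, so a probe may read several of them. Ifnb1 and Ifng were not well above background on array 1 in either channel and were not tested.

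Genes listed under an older name on the array were looked up through RefSeq, which raised the interferon genes tested to 43, with a median of 0.37. Dhx58, the regulator of Rig-I and Mda5 known as Lgp2, had 352 and 296 in knockdown cells, against 238 and 178 in control cells, and ratios of 0.56 and 0.73 (limma adjusted p = 0.178). Irf9, the DNA-binding part of the ISRE complex, had 1331 and 1071 in knockdown cells, against 1171 and 602 in control cells, with ratios of 0.18 and 0.83 on its brightest probe and -0.04 and -0.10 on its other probe. Of the adaptors, Sting1 had -0.07 and 1.08, Mavs 0.03 and 0.26, and the DNA sensor Cgas -0.02 and -0.22 on its brightest probe and 0.06 and 0.10 on its other probe.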

How the data were processed

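RNA of Mybbp1a knockdown and control C2C12 cells was compared on 2 two-colour arrays, each 1 replicate. Spots were quantified in Agilent Feature Extraction 9.5.3.1, per the submitters' processing notes, and probe positions are on build mm8, per the file headers. The authors deposited, for every spot and dye, a mean intensity and a local background intensity, per the file headers. The same files hold the program's log10 ratio (Cy5 over Cy3), used as an alternative, and its deposited p-value, not used here, per the file headers. The series' deposited value table held log2 ratios of knockdown over control with a median of 0 on each array, equal to the deposited log10 ratios within 0.001 on the log2 scale for 99.4% of probes on each.

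Signals were corrected with normexp (offset 50) and normalized by loess (span 0.3) in limma 3.58.1 under R 4.3.3. The offset shrinks ratios of dim probes, and printed signals include it, after scaling between arrays (Aquantile). The 1639 control spots and 154 and 237 outlier spots were left out. Testing required that either dye be flagged well above background on each array, and a gene was read by its brightest probe. Ratios were tested against 0 with lmFit and eBayes (1 residual degree of freedom), with Benjamini-Hochberg adjustment over 18204 genes, and the script was tested on simulated data. The number of arrays, 2, limits the precision. The interferon genes and the other lists were chosen with earlier results of these data known. All interferon genes are accounted for by role; of the other lists, the highest and lowest means and further genes chosen after their values were seen are named. Printed promoters are those of genes with the highest and lowest ratio on their lower array, except Ifitm3, left out because its matches lay after the start. The windows of the high genes were thus chosen partly by where their matches lay.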

Additional observations from a re-analysis of the deposited data

How the results depend on the processing

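With 2 arrays in 1 orientation, precision is limited by their number, and probes near background carry ratios shrunk towards 0. The test was paired by array, because the value tested was each array's ratio of knockdown over control, so no further block could be added. A slide block was not possible because each slide held 1 array. Median centring gave 3127 genes higher and 61 lower past the adjusted p, where loess gave 0 and 0. The cause was not tested. Counts at 2-fold or more on both arrays were 235 higher and 23 lower with the Feature Extraction ratio, 290 and 6 with median centring, 224 and 22 with the deposited table, and between 255 and 493 higher and between 24 and 151 lower with 1 array left out. With median centring the interferon median was 0.56, that of signalling genes 0.59, of effectors 0.69 and of GTPases 0.26, beside 0.21 for all genes. Effectors had 0.49 with the Feature Extraction ratio and 0.45 with no filter on dim probes, and sensors had 0.71 with the deposited table. With that table Ddx58 was read by another probe, at 0.94. With 1 array left out the medians lay between 0.20 and 0.33 for signalling genes, 0.44 and 0.46 for effectors, and 0.06 and 0.25 for GTPases, and on the single array that remained between 33 and 36 interferon genes were higher and between 5 and 8 lower. The mean changed sign for Irf3 (0.29 with median centring, 0.08 over all probes), Irgm (0.26 and 0.02), Socs1 (0.23 with median centring) and Mx1 (-0.22 with median centring), and for Irf2 (-0.04) and Gbp3 (-0.02) with the Feature Extraction ratio and the deposited table. No other interferon gene with a value changed sign under another scaling, filter, probe choice or naming, where Socs1, Ifitm3 and Mx2 had no value in the deposited table, and Irf7, Ifit3 and Mx1 none with both channels above background. Across settings that kept both arrays, Bst2 lay between 1.51 and 1.79, Rsad2 between 0.81 and 1.84, and Samhd1 between 0.02 and 1.14. The 1.14 was the deposited table's value of the other Samhd1 probe. On single arrays Bst2 had 1.19 and 1.86, Rsad2 0.32 and 2.01, and Samhd1 0.03 and 0.09.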
